A study of Mus musculus with 5 samples.

Results

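A set of 10 inflammatory signalling genes was followed in sorted mouse common lymphoid progenitors (CLPs), marrow cells that give rise to lymphocytes of all kinds. They were the 5 CC chemokines Ccl3, Ccl4, Ccl5, Ccl6 and Ccl9, the 2 CXC chemokines Cxcl2 and Cxcl10, and the cytokines Il1b, Tnf and Osm. The genes were taken from a fixed list of symbols and matched to Ensembl gene identifiers. All 10 were found among the 55487 identifiers of the count table, and 8 of the 10 had enough reads to be among the 14423 genes tested. Cxcl2 and Cxcl10 were not tested.

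RNA was sequenced from 3 libraries of SF1 mice, which carry SclCre together with the JAK2-V617F mutant kinase, and from 2 libraries of wild-type (WT) mice. Both groups were harvested 16 weeks after tamoxifen, and the sort took lineage-negative marrow cells positive for CD127 and Flt3. Regulatory elements of Scl drive Cre in blood stem and progenitor cells, so the mutant is not limited to the sorted cells. The sources used here do not give the age of the mice, the Cre status of the WT mice, or the number of animals behind each library. P-values therefore measure only the spread between these libraries.

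Chemokines are small secreted proteins that bind G protein-coupled receptors and direct the movement of leukocytes. The CC group acts mainly on monocytes, T cells and eosinophils, and the CXC group is known for recruiting neutrophils (Cxcl2) or activated T cells (Cxcl10). Il1b and Tnf start NF-kB signalling in the cells that bind them, while Osm, oncostatin M, signals through gp130 and STAT factors. Myeloid cells are the best known source of most of these proteins, and their messengers are typically short-lived, with AU-rich elements in the untranslated region after the coding sequence.

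The depth ranged from 9350767 to 11290082 counts in SF1, and WT replicate 1 had 20424296 counts and WT replicate 2 had 8894288. A floor of 3 counts stood for 0.263 to 0.319 CPM (counts scaled to library size, with TMM factors) in SF1 and for 0.151 and 0.342 CPM in WT. The receptor genes of the sort were abundant in both groups. Of 8 genes listed for the sorted cells, 2 were higher (Il7r and Ly6d) and 2 lower (Kit and Rag1). Of these calls only that of Ly6d held without each library in turn. Flt3 was between 1594 and 1700 CPM in SF1 and at 1514 and 1511 CPM in WT, and Il7r, which encodes CD127, was between 421 and 465 CPM in SF1 and at 331 and 371 CPM in WT. The sort gate can also hold other cells, and their marker genes are given beside the results that they move with. In bulk RNA, fewer cells of a type and less RNA per cell cannot be told apart.

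The promoter windows of Ccl6 and Ccl9 share a related stretch, shown here because both genes were higher in SF1 and lie next to each other. The RefSeq windows (GRCm38.p6, minus strand, 250 bases before to 50 after the start site) are chr11:83593038-83593337 for Ccl6 and chr11:83578587-83578886 for Ccl9. Among the 21 pairs of the 7 members with such a window (Ccl3, Ccl6, Ccl9, Cxcl2, Cxcl10, Il1b and Tnf), this pair had the highest local alignment score, 71, and the next pair had 22. The aligned stretch, in capitals, was 79.7% identical over 74 columns. Relative to the start site it ran from -59 to 14 in Ccl6 and from -18 to 48 in Ccl9. Its positions therefore differ between the genes, and most of the Ccl9 stretch lies after the start site.
Ccl6: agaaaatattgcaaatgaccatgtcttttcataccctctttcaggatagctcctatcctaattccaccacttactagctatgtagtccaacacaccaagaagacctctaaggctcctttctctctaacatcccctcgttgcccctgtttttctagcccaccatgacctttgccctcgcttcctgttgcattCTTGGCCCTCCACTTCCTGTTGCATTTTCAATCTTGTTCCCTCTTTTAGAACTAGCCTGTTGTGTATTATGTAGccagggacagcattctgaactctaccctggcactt
Ccl9: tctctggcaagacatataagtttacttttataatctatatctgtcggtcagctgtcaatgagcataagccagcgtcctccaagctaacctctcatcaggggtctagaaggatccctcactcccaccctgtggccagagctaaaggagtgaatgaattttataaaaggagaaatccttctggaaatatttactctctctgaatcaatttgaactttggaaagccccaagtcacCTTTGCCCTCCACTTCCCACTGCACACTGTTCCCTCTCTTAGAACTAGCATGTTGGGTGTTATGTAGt
In these windows the kappaB consensus (the NF-kB site, searched on both strands) matched in Ccl9, Cxcl2 and Cxcl10, 3 of the 7, against 8.46% of all 32851 RefSeq promoter windows. The Ccl9 match reads GGAAAGCCCC in the printed orientation, is on the opposite strand and begins 35 bases before the start site, and the Cxcl2 window held the overlapping matches GGGAATTTCC and GGAATTTCCC. An AP-1 heptamer (TGANTCA) was present in Ccl9 and Cxcl10, against 7.81% of all windows. The STAT palindrome, TTC and GAA separated by any 3 bases, was in none of the 7 windows, against 8.30% of all windows. A match is a description of letters and not of a bound site, and no match says only that these letters are not in this window.

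The messengers also differ in their AU-rich pentamers (ATTTA), the core of the sites bound by the decay factor Zfp36. The following windows of 30 bases after the coding sequence hold the most pentamers in each transcript (GENCODE M21, pentamers in capitals). They are shown for Ccl3, Ccl9, Il1b and Tnf only.
Ccl3: gactcttcacttgaaattttATTTAATTTA
Ccl9: tgagtccATTTAtacagtggatctcATTTA
Il1b: caaccacttacctATTTATTTAtgtATTTA
Tnf: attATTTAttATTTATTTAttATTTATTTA
The density of pentamers was 12.2 per kb of this region in Ccl3, 10.5 in Tnf, 8.71 in Il1b and 2.03 in Ccl9, against a median of 1.22 over all genes with such an annotated region. Cxcl2 had 7.36 per kb, Ccl4 6.62, Osm 5.90, Ccl6 4.24 and Cxcl10 3.01. Ccl5 was the member without a pentamer. Ccl3 and Ccl9 each had 5 pentamers, in regions of 409 and 2465 bases. The longer nonamer TTATTTATT occurred in Tnf (5) and Cxcl2 (4) and in no other member.

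Per length, Ccl3, Ccl4 and Ccl9 were the most abundant members in both groups. In SF1, Ccl3 averaged 25.8 ± 8.15 RPKM (CPM per kb of exon), Ccl4 21.0 ± 5.09 RPKM and Ccl9 17.5 ± 6.02 RPKM (SD, n = 3), and neighbours in this order did not differ beyond their spread. In WT the order began with Ccl4, at 14.1 ± 2.09 RPKM, followed by Ccl9 at 8.17 ± 2.93 RPKM and Ccl3 at 8.11 ± 0.327 RPKM (n = 2). Averaged over the 5 libraries, these genes stood at the 74.3th percentile (Ccl3), the 73.7th (Ccl4) and the 66.9th (Ccl9) of all tested genes by RPKM. Ccl6, Osm, Tnf, Il1b and Ccl5 followed at means between 1.28 and 5.18 RPKM in SF1 and between 0.119 and 4.74 RPKM in WT. Cxcl10 averaged 0.138 ± 0.038 RPKM in SF1 and 0.213 ± 0.015 RPKM in WT, and Cxcl2 had 1 count in all.

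**Figure D1:**
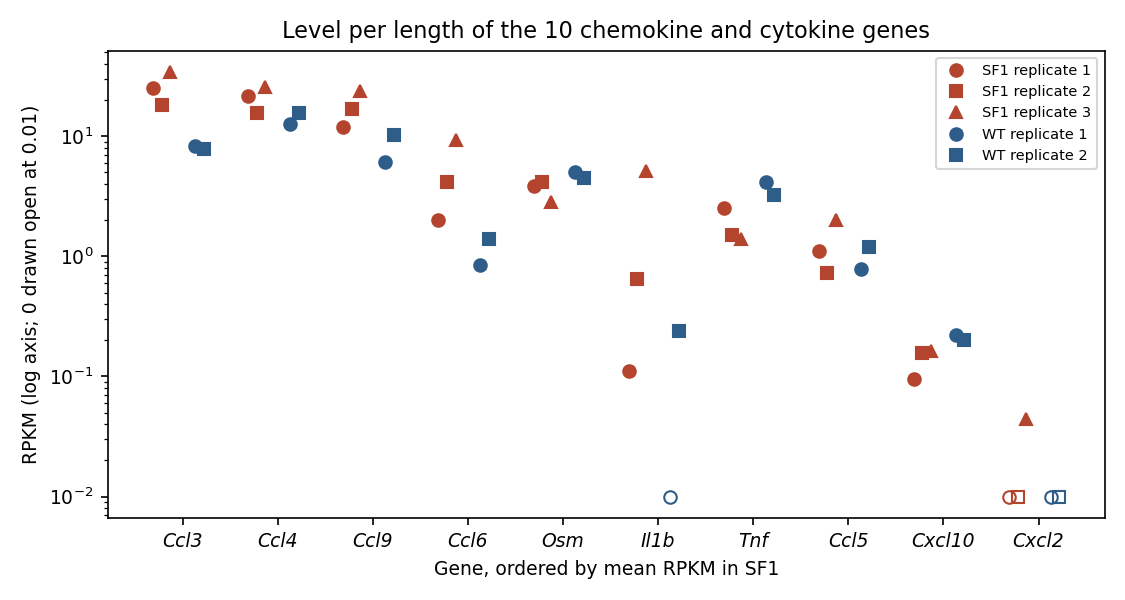
Level of each member in each library, in RPKM on a log axis, with the 3 SF1 libraries left of the 2 WT libraries for each gene. Ccl3, Ccl6 and Ccl9 lie higher in every SF1 library than in either WT library, Tnf and Osm lie lower, and Il1b spreads over the SF1 libraries.

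The chemokine genes Ccl3, Ccl6 and Ccl9 were higher in SF1, and no member was called lower. In edgeR's quasi-likelihood test, adjusted by Benjamini-Hochberg over all genes tested, 3 of the 8 tested members were higher, where 6.77% of all tested genes were. The share of tested genes called lower was 9.74%, and 16.5% were called in either direction. The median log2 fold change (SF1 over WT, as for all fold changes here) was 0.86 over the 8 members and 0.02 over all genes tested. The 3 SF1 libraries were all above both WT libraries for 3 tested members, against 24.8% of all tested genes, and all below for 2 tested members, against 24.2%, so 5 of 8 did not overlap, against 49% of all tested genes. A log2 fold change of at least 1 was found for 4 tested members (Ccl3, Ccl6, Ccl9 and Il1b), against 5.46% of tested genes, and one of -1 or less for Tnf, against 2.37%. Il1b passed the filter on low counts only through SF1, where it was higher, so its fold change was conditioned by the filter. Wfdc21, Ccr1, Pf4, Id1 and Igkc, named below, also passed this filter only through SF1, where they were higher. Cxcl12 passed it only through WT, where it was higher. Other genes named below may share this limit. The counts and the median over the tested members are descriptions, and nothing is read from them against the shares of all genes.

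Ccl3 encodes a chemokine that binds the receptor Ccr1. It is at GRCm38 chromosome 11, 83647844 to 83649355, on the minus strand (ENSMUSG00000000982). It was at 19.3, 13.8 and 26.3 CPM in SF1 replicates 1, 2 and 3, against 6.39 and 6.04 CPM in WT replicates 1 and 2. The groups did not overlap, and the lowest SF1 library had more than both WT libraries summed. Ccl3 rose 3.17-fold (log2 fold change 1.66, SE 0.27, adjusted p = 0.00485). This call held in all 14 alternatives of processing, with log2 fold changes between 1.15 and 1.87.

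Ccl9 encodes a mouse ligand of Ccr1. It lies on chromosome 11, 83572919 to 83578636 (ENSMUSG00000019122), and was the member with the most reads. Its level was 36.3, 51.0 and 72.7 CPM across the SF1 replicates, against 18.6 and 31.2 CPM in WT. All SF1 libraries were above the WT libraries, although SF1 replicate 1 and WT replicate 2 were close. Ccl9 rose 2.19-fold (log2 fold change 1.13, SE 0.30, adjusted p = 0.0329). The call was lost without SF1 replicate 2 (adjusted p = 0.0871), SF1 replicate 3 (0.0903) or WT replicate 1 (0.217, log2 fold change 0.775), and by DESeq2 (0.0844).

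Ccl6, another mouse ligand of Ccr1, lies on chromosome 11, 83587882 to 83593087 (ENSMUSG00000018927). It was at 3.62, 7.53 and 16.7 CPM across the SF1 replicates, against 1.51 and 2.51 CPM in WT. Its SF1 libraries had a wider ratio of highest to lowest than those of Ccl3 or Ccl9, with replicate 3 highest. Ccl6 rose 4.86-fold (log2 fold change 2.28, SE 0.60, adjusted p = 0.0340). Its call was lost without SF1 replicate 2 (adjusted p = 0.0750), SF1 replicate 3 (0.0756, log2 fold change 1.55), WT replicate 1 (0.211) or WT replicate 2 (0.0574), and by limma voom (0.0645).

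**Figure D2:**
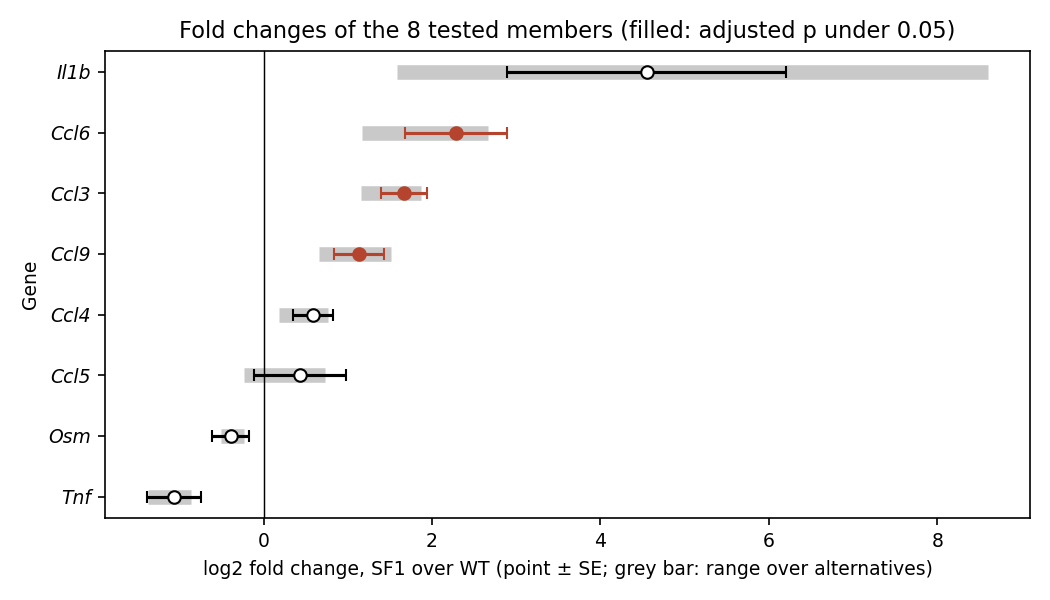
Log2 fold change of the 8 tested members, SF1 over WT, as point and standard error, with a grey bar for the range over the alternatives of processing. Ccl3, Ccl6 and Ccl9, filled, passed the adjusted p of 0.05, and the grey bar of Il1b is the widest, from 1.59 to 8.60.

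The CC chemokine genes Ccl4 and Ccl5 did not pass. Ccl4 (chromosome 11, 83662584 to 83664683, plus strand), a chemokine closely related to Ccl3, was at 14.4, 10.2 and 16.9 CPM in SF1 and at 8.30 and 10.2 CPM in WT. SF1 replicate 2 and WT replicate 2 had nearly the same level, so the groups overlapped. The log2 fold change was 0.59 (SE 0.24, adjusted p = 0.130). Ccl5, known as RANTES and made by T and natural killer cells among others, was at 1.06, 0.70 and 1.93 CPM in SF1 and at 0.755 and 1.14 CPM in WT. At 8 to 21 counts a library it stood near the lower limit of the test (log2 fold change 0.43, SE 0.55, adjusted p = 0.636).

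Within each library, Ccl3 had more counts than Ccl4 in SF1 and fewer in WT, a comparison chosen after the values were seen. The Ccl3 share of the summed counts of both genes was 57.3%, 57.5% and 60.9% in SF1 replicates 1, 2 and 3, with 95% exact Clopper-Pearson intervals of 51.6 to 62.8%, 51.4 to 63.4% and 56.3 to 65.3%. In WT replicates 1 and 2 the share was 43.5% (37.7 to 49.4%) and 37.1% (29.1 to 45.5%). The intervals of the 2 groups do not overlap, but they cover counting error only. The exact permutation test over the 5 libraries, made two-sided by doubling the smaller tail, gave p = 0.2. This is the smallest value that it can give for 3 against 2 libraries. A share within a library does not depend on the scaling between libraries. For Ccl6 and Ccl9, the Ccl6 share was 9.07%, 12.9% and 18.7% in SF1 and 7.52% and 7.43% in WT, and the intervals of SF1 replicate 1 (6.36 to 12.4%) and SF1 replicate 2 (10.4 to 15.7%) overlapped that of WT replicate 1 (5.13 to 10.6%), while that of SF1 replicate 3 (16.3 to 21.3%) did not.

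**Figure D3:**
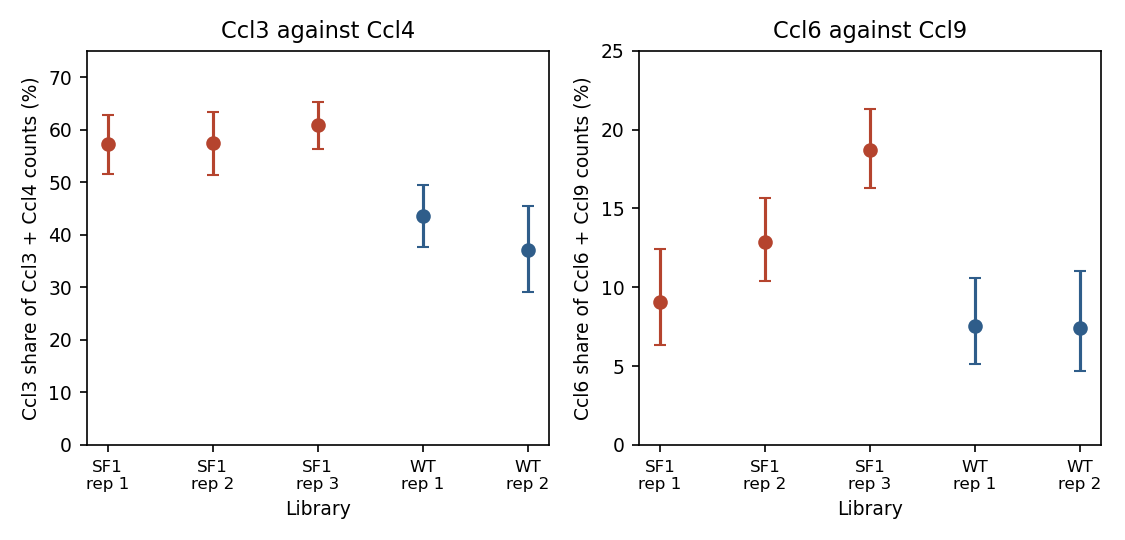
Share of Ccl3 in the counts of Ccl3 and Ccl4 (left) and of Ccl6 in those of Ccl6 and Ccl9 (right), in percent, by library, with 95% exact binomial intervals. The 3 SF1 libraries lie between 57.3% and 60.9% for Ccl3, above both WT libraries, while the Ccl6 share differs among the SF1 libraries.

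The members that rose share a stretch of chromosome 11 with other genes that rose. Ccl9, Ccl6, Ccl3 and Ccl4 lie within 91.8 kb, and Wfdc17, Wfdc18 and Wfdc21 follow on the plus strand within 100 kb of Ccl3. These 3 genes encode small secreted proteins with a whey acidic protein domain. Wfdc17 was at 58.3, 74.2 and 119 CPM in SF1, against 12.7 and 20.7 CPM in WT, a log2 difference of 2.37 (SE 0.32, adjusted p = 0.00205). Every SF1 library was well above both WT libraries. Wfdc21 was at 11.9, 11.4 and 37.3 CPM in SF1, against 0.604 and 0.911 CPM in WT (log2 fold change 4.81, adjusted p = 0.00265), and Wfdc18 had a log2 fold change of 1.62 (adjusted p = 0.0110; 0.0958 without WT replicate 1). From Ccl5 to Heatr6, 9 genes were tested, of which 6 rose (Ccl9, Ccl6, Ccl3 and the Wfdc genes) and Ccl5, Ccl4 and Heatr6 did not pass. The stretch was described after the values were seen, so its 6 of 9 is not read against the 6.77% of all tested genes that were higher. Wfdc21 also passed the filter on low counts only through SF1. Heatr6, the next tested gene, averaged 60.6 ± 2.07 CPM in SF1 and 56.8 ± 4.24 CPM in WT (log2 fold change 0.10, adjusted p = 0.560). Around all members, 85 other annotated genes lie within 100 kb and 36 were tested. Of these 3 rose (the Wfdc genes) and 2 fell, where 6.77% of all tested genes were higher and 9.74% lower. Both genes that fell lie beside Osm: Sf3a1, a splicing factor subunit, and Tbc1d10a, a Rab regulator (log2 fold changes -0.48 and -0.46, adjusted p = 0.00783 and 0.0363).

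**Figure D4:**
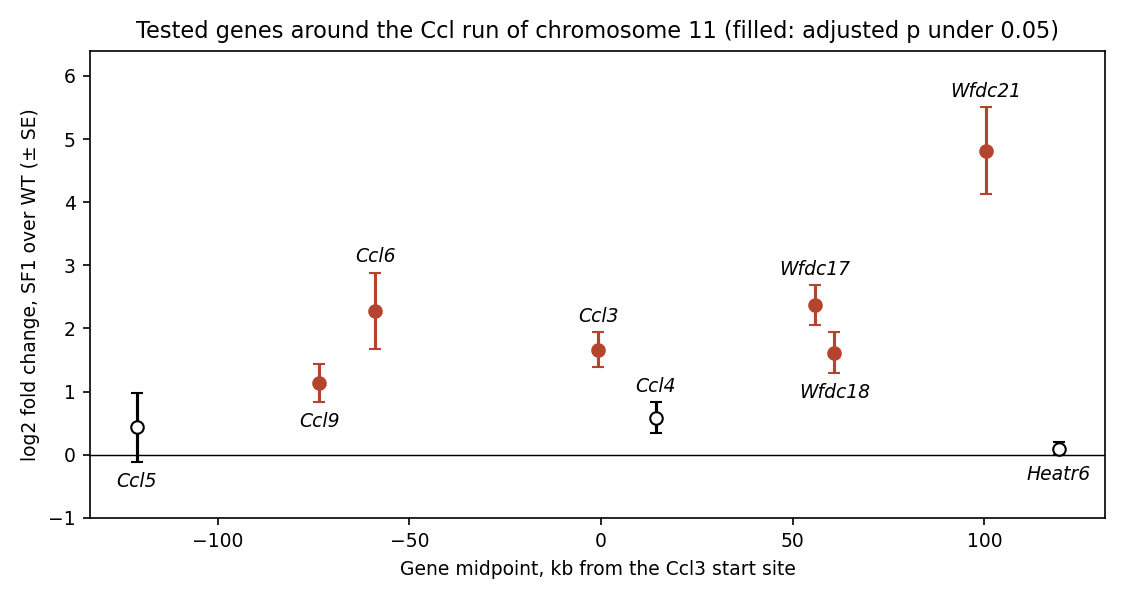
Log2 fold change (SF1 over WT, with SE) of the tested genes around the Ccl run of chromosome 11, against the distance of each gene's midpoint from the Ccl3 start site in kb. Ccl9, Ccl6, Ccl3 and the 3 Wfdc genes are filled, having passed the adjusted p of 0.05, while Ccl5, Ccl4 and Heatr6 are open.

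The 3 cytokine genes did not pass. Il1b encodes interleukin-1 beta, a fever-inducing cytokine that caspase-1 cleaves into its active form. It is at chromosome 2, 129364570 to 129371139, and had 2, 14 and 106 counts in SF1 replicates 1, 2 and 3 (0.213, 1.23 and 9.74 CPM), against 0 and 4 counts in WT replicates 1 and 2 (0 and 0.456 CPM). SF1 replicate 3 held most of the reads, and SF1 replicate 1 was below WT replicate 2. The log2 fold change was 4.55 with an SE of 1.66 (adjusted p = 0.0946). Il1b passed without SF1 replicate 1 (adjusted p = 0.0410) and with no filter on low counts (1.81e-12). The value with no filter is not read as stronger evidence. The same fit gave Prss34, at 35, 0 and 98 counts in SF1 and 0 in WT, an adjusted p of 6.84e-20, against 0.0547 in the main fit. Il1b fell under the filter and was not tested without SF1 replicate 2, without SF1 replicate 3 or with the stricter filter. The natural antagonist of its receptor, Il1rn, was not tested and had 0, 4 and 25 counts in SF1 and 0 and 1 in WT, also with most reads in SF1 replicate 3. Il1bos, an antisense gene whose exons overlap those of Il1b, had 3 counts in all libraries together.

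Tnf, which encodes tumour necrosis factor, had the largest difference in the other direction. Its level was 4.15, 2.45 and 2.30 CPM across the SF1 replicates, against 6.84 and 5.35 CPM in WT (chromosome 17, 35199381 to 35202007, ENSMUSG00000024401). Every SF1 library was below both WT libraries. The log2 fold change was -1.06 (SE 0.32), and the adjusted p of 0.0509 just missed the threshold. It passed in 6 of the 14 alternatives, among them without SF1 replicate 1 (adjusted p = 0.0213), with the GC and length trend removed (0.0287), by limma voom (0.0275) and with the stricter filter on low counts (0.0459). Without WT replicate 1 the adjusted p was 0.311. The adjoining lymphotoxin genes are cytokines of the same family: Lta was at 2.02, 1.84 and 1.19 CPM in SF1, against 3.82 and 2.62 CPM in WT (adjusted p = 0.106), and Ltb had a log2 fold change of 0.24 (adjusted p = 0.235).

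Osm (chromosome 11, 4236420 to 4241026, plus strand), a cytokine gene induced by STAT5 in blood cells, was at 8.83, 9.46 and 6.43 CPM in SF1 and at 11.4 and 10.1 CPM in WT. The SF1 libraries were below both WT libraries, by less than 1 CPM at the nearest pair. The log2 fold change was -0.39 (SE 0.22, adjusted p = 0.258), and it passed in none of the 14 alternatives.

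The 2 CXC chemokines were close to the detection floor. Cxcl2, a neutrophil attractant that binds Cxcr2, had 0, 0 and 1 counts in SF1 and none in WT, so no level or difference was detectable at this depth. Its relatives Cxcl1 and Cxcl3 had no counts in any library. Cxcl10, an interferon-induced ligand of Cxcr3, had 2, 4 and 4 counts in SF1 and 10 and 4 counts in WT, or 0.213 to 0.368 CPM in SF1, against 0.503 and 0.456 CPM in WT. All SF1 values were below those of WT, but they rest on 10 and 14 counts in all, and exons of Art3 on the opposite strand overlap this gene.

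Markers of other blood cells moved with several members. Of the 16 genes of the neutrophil list all were tested, 14 rose and none fell, and none was at 0 in either group. Their summed level was 2163, 2672 and 5697 CPM in SF1 replicates 1, 2 and 3 and 973 and 1233 CPM in WT. Of the 12 monocyte genes 9 were tested and 7 rose, with sums of 428, 619 and 988 CPM in SF1, against 205 and 263 CPM in WT. In both lists SF1 replicate 3 was highest and WT replicate 1 lowest, which also holds for Ccl9, Ccl6 and Il1b. The order of all 5 libraries was the same for Ccl9 and Ccl6, and for Il1b SF1 replicate 1 was below WT replicate 2. The SF1 order of Ccl3 was different, with replicate 2 lowest. Macrophage markers went the other way, with 5 of 10 tested genes lower and none higher, sums of 74.5 to 86.8 CPM in SF1, against 96.9 and 88.9 CPM in WT, and no counts of Cd5l or Mertk in SF1. The calls of the neutrophil, monocyte and macrophage lists depended on the fit. Without SF1 replicate 2, 1 macrophage gene was lower, and without SF1 replicate 3, 4 were. With the stricter filter 3 were tested and 0 were lower. In the same fits 12, 12 and 14 neutrophil genes and 4, 5 and 7 monocyte genes were higher. By limma voom 11 neutrophil and 6 monocyte genes were higher and 6 macrophage genes lower. Without WT replicate 1, fewer genes of each of these lists were called than in the main fit. The part of all these cells in the levels of the members was not tested.

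Natural killer markers, of cells known to make Ccl3, Ccl4 and Ccl5, summed to between 189 and 212 CPM in SF1 and to 177 and 182 CPM in WT, with 1 of 5 tested genes higher (Klrd1) and a median log2 fold change of 0.83 over those tested. Among the defining genes, Gzmb was at 0 in both groups, Ncr1 and Klra8 had 0 counts in SF1 and 2 in WT, and Eomes and Tbx21 had 3 and 1 counts in SF1 and 0 in WT. Dendritic cell markers had 6 of 15 tested genes higher and none lower, with sums of 2255 to 2817 CPM in SF1 and of 1343 and 1674 CPM in WT. Among basophil, mast cell and eosinophil markers 1 of 4 tested genes was higher, with sums of 16.8 to 40.5 CPM in SF1, against 8.30 and 11.6 CPM in WT, and Prss34 and Epx were at 0 in WT. None of 6 tested T cell markers passed, with sums of 295 to 321 CPM in SF1 and of 298 and 247 CPM in WT. Erythroid markers had 6 of 8 tested genes lower, with sums of 77.1 to 101 CPM in SF1 and of 204 and 180 CPM in WT. Among megakaryocyte markers 1 of 4 tested genes was higher, Pf4, with sums of 9.79 to 21.7 CPM in SF1 and of 9.46 and 11.3 CPM in WT. In mature B and plasma cell markers 2 of 7 tested genes were higher and 1 lower, and all 3 calls held without each library in turn. Their sums were 479 to 584 CPM in SF1 and 372 and 328 CPM in WT. The immunoglobulin light chain gene Igkc was at 185, 136 and 168 CPM in SF1, against 0.604 and 0.342 CPM in WT (adjusted p = 1.43e-06). Jchain, which joins secreted antibodies, was at 85.1, 68.4 and 31.8 CPM in SF1, against 1.36 and 0.911 CPM in WT (adjusted p = 0.000395). Their part in the levels of the members was likewise not tested.

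**Figure D5:**
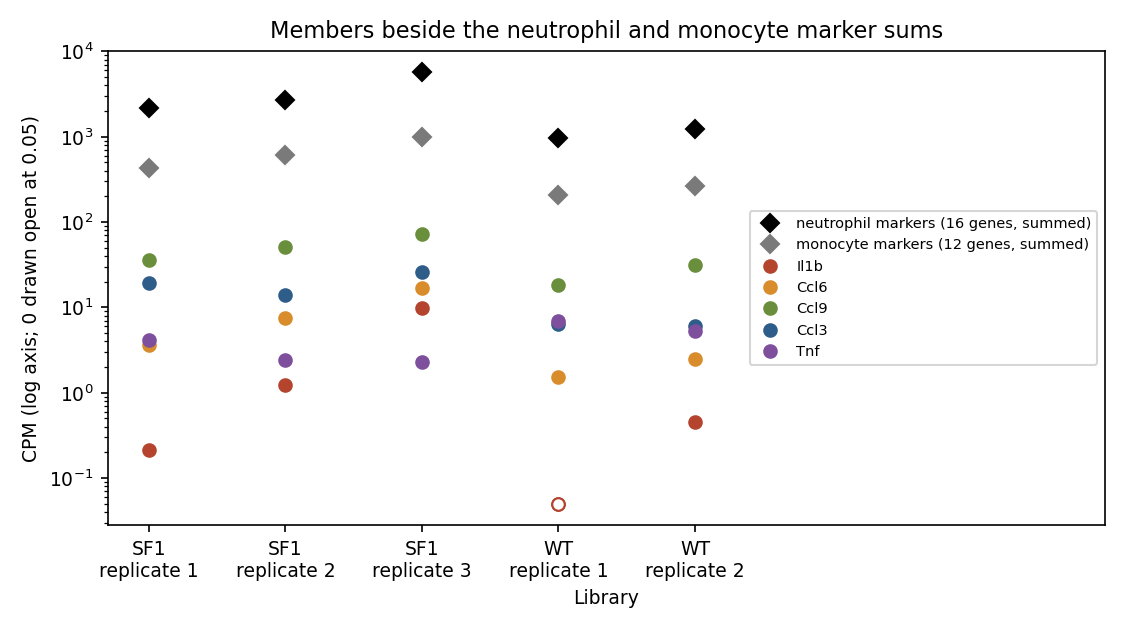
CPM on a log axis of 5 members (circles) and of the summed neutrophil and monocyte markers (diamonds) in each library, SF1 left of WT. SF1 replicate 3 has the highest values of both marker sums, of Il1b (9.74 CPM), of Ccl6 (16.7 CPM) and of Ccl9 (72.7 CPM), while Tnf is lowest there.

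Receptors of the members went both ways. Of 13 tested, 4 rose, 3 fell and 6 did not pass (median log2 fold change 0.24). Lifr, a receptor chain that pairs with gp130 and in humans also binds oncostatin M, was at 34.1, 42.2 and 42.0 CPM in SF1, against 14.3 and 17.0 CPM in WT, a log2 difference of 1.35 (SE 0.15, adjusted p = 0.000975). This was the receptor call that held without each library in turn. Osmr, the specific oncostatin M receptor chain, had no counts in any library. Ccr1, the receptor of Ccl3, Ccl6 and Ccl9, was at 1.06, 2.71 and 10.5 CPM in SF1 and at 0.503 and 0 CPM in WT (adjusted p = 0.0432), and Cxcr2, the neutrophil chemokine receptor, at 2.23, 5.25 and 10.5 CPM and at 0.855 and 1.25 CPM (adjusted p = 0.0254). For both the call was lost when any library but SF1 replicate 1 was left out (adjusted p between 0.0545 and 0.171). Ccr1 passed the filter on low counts only through SF1. The signalling receptor Il1r1 had a log2 fold change of 0.51 (adjusted p = 0.0177) and its partner chain Il1rap one of -0.44 (adjusted p = 0.0477), and the Tnf receptor Tnfrsf1b one of -0.49 (adjusted p = 0.0200). The Il1rap call was lost without any 1 library (adjusted p between 0.0540 and 0.315), that of Il1r1 without WT replicate 2 or either of SF1 replicates 2 and 3 (0.0636 to 0.0884), and that of Tnfrsf1b without WT replicate 1 or either of SF1 replicates 2 and 3 (0.0593 to 0.178).

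Genes of processing and release had 4 of 13 tested genes higher, none lower and 9 not passing (median log2 fold change 0.35). Pycard, the inflammasome adaptor, was at 76.6, 88.0 and 92.0 CPM in SF1 and at 55.0 and 57.3 CPM in WT, a log2 difference of 0.61 (SE 0.11, adjusted p = 0.00663), and held without each library in turn. Casp1, the protease that cleaves pro-interleukin-1 beta, had a log2 fold change of 0.41 (adjusted p = 0.0163), lost without SF1 replicate 3 (0.0575) or WT replicate 1 (0.125) and with the GC and length trend removed (0.476). The other genes that rose were Mmp8 and Mmp9, neutrophil proteases that trim chemokines, of which Mmp8 is also in the neutrophil list (log2 fold changes 4.70 and 5.21, adjusted p = 0.00601 and 0.00713; 0.0550 and 0.0721 without WT replicate 1). Adam17, the sheddase of Tnf, did not pass (log2 fold change -0.15, adjusted p = 0.235), nor did the inflammasome sensor Nlrp3 (0.67, adjusted p = 0.195).

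Of 12 regulators of messenger decay and translation, 1 was higher and 2 were lower (median log2 fold change 0.14), and none of these calls held without each library in turn. Zfp36, the decay factor of AU-rich messengers, was at 113, 97.6 and 143 CPM in SF1 and at 93.9 and 87.9 CPM in WT (log2 fold change 0.37, adjusted p = 0.119). Zc3h12c, of the regnase family of RNases, was the higher gene, at 16.7, 13.5 and 19.9 CPM in SF1, against 9.56 and 7.06 CPM in WT (log2 fold change 0.98, adjusted p = 0.0190). Its call was lost when SF1 replicate 3 (0.0616) or WT replicate 2 (0.0832) was left out. The Zfp36 relative Zfp36l2 had a log2 fold change of -0.44 (adjusted p = 0.0472), and Khsrp, another AU-rich element binding protein, one of -0.65 (adjusted p = 0.0150). Zfp36l2 missed the threshold when any library but SF1 replicate 3 was left out (adjusted p between 0.0828 and 0.192), and Khsrp without WT replicate 1 or either of SF1 replicates 2 and 3 (0.0599 to 0.130).

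Among 20 tested NF-kB feedback and target genes, 5 were higher, none lower and 15 did not pass (median log2 fold change 0.18). The 5 were Ier3, an early response gene, Nfkbiz and Nfkbid, nuclear regulators of NF-kB, the subunit gene Nfkb1 and Tnip3, an inhibitor of the pathway. Ier3 was at 10.5, 19.7 and 24.4 CPM in SF1, against 6.24 and 6.26 CPM in WT, a log2 difference of 1.55 (SE 0.32, adjusted p = 0.0136). None of the 5 held without each library in turn: 0 were called without SF1 replicate 2, 1 without SF1 replicate 3, 1 without WT replicate 1 and 2 without WT replicate 2. The classical feedback inhibitors Nfkbia and Tnfaip3 did not pass (log2 fold changes 0.23 and 0.12, adjusted p = 0.200 and 0.685).

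Immediate early genes had 5 of 17 tested genes higher, none lower and 12 not passing (median log2 fold change 0.34). Junb was at 93.2, 88.9 and 140 CPM in SF1, against 53.8 and 50.8 CPM in WT, a log2 difference of 1.03 (SE 0.19, adjusted p = 0.00712), and Klf6 had a log2 fold change of 0.71 (adjusted p = 0.00578). Both held without each library in turn. Fos was at 27.8, 41.9 and 113 CPM in SF1 and at 9.46 and 9.79 CPM in WT (adjusted p = 0.0124), and missed the threshold when WT replicate 1 was left out (0.0837), with the highest library again SF1 replicate 3. Fosb and Egr1 were the other 2 (adjusted p = 0.0181 and 0.0382), and neither held without each library in turn. These genes also respond to handling of cells, and the part of handling was not tested.

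Of 12 JAK-STAT target genes, 3 were higher, 1 was lower and 8 did not pass (median log2 fold change 0.34). Pim2, a survival kinase, was at 50.6, 54.4 and 54.6 CPM in SF1 and at 29.9 and 33.4 CPM in WT, a log2 difference of 0.76 (SE 0.11, adjusted p = 0.00311), and Myc, the growth regulator, was at 558, 369 and 387 CPM in SF1 and at 786 and 820 CPM in WT, a log2 difference of -0.87 (SE 0.16, adjusted p = 0.00663). Both held without each library in turn, and the calls of Id1 and Bcl3 did not. Socs3, the feedback inhibitor of gp130 signalling, was at 11.8, 20.1 and 18.6 CPM in SF1, against 9.51 and 10.5 CPM in WT and did not pass (adjusted p = 0.0589). It passed without SF1 replicate 1 (0.0119), by DESeq2 (0.0344), with upper-quartile scaling (0.0457), with no filter on low counts (0.00629) and with the GC and length trend removed, without the block (0.0445) or with it (0.0411).

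Interferon-stimulated genes are the class to which Cxcl10 belongs. Of 24 tested, 2 were higher, 1 was lower and 21 did not pass (median log2 fold change -0.33), where 16.5% of all tested genes were called. All SF1 libraries were below both WT libraries for 10 of the 24, against 24.2% of all tested genes. They were all above for 2, against 24.8%. These counts are descriptions. Ddx58, which encodes the RNA sensor RIG-I, was at 48.2, 40.9 and 39.7 CPM in SF1, against 82.6 and 67.9 CPM in WT, a log2 difference of -0.82 (SE 0.13, adjusted p = 0.00404), and held without each library in turn. Bst2, also a marker of plasmacytoid dendritic cells and in that list, had a log2 fold change of 0.57 (adjusted p = 0.0112; 0.0881 without WT replicate 1). Gbp3, a guanylate-binding protein, had one of 0.34 (adjusted p = 0.0274), which missed the threshold when any library but WT replicate 2 was left out. Without SF1 replicate 1, 5 genes of the list were lower and 1 was higher.

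Few other chemokines were measured. Of 28 listed, 13 had no count in any library and 4 were tested. Pf4, the platelet chemokine, was at 1.70, 1.93 and 6.80 CPM in SF1, against 0.604 and 0.342 CPM in WT (log2 fold change 2.76, adjusted p = 0.0342), and Cxcl12, the chemokine that retains progenitors in marrow, was at 0.851, 0.525 and 0.643 CPM in SF1, against 1.71 and 4.33 CPM in WT (log2 fold change -2.10, adjusted p = 0.0266). The Pf4 call was lost without SF1 replicate 3, WT replicate 1 or WT replicate 2 (adjusted p between 0.0674 and 0.135) and the Cxcl12 call without WT replicate 2 or either of SF1 replicates 2 and 3 (0.0825 to 0.212). Pf4 passed the filter on low counts only through SF1, and Cxcl12 only through WT. Other inflammatory cytokines had 10 of 22 tested, with 1 higher, 3 lower and 6 not passing (median log2 fold change -0.14). Tgfb1, an anti-inflammatory cytokine, was at 91.1, 72.1 and 86.8 CPM in SF1, against 157 and 176 CPM in WT (adjusted p = 0.000971). Il12a, a subunit of interleukins of the IL-12 family, was at 447, 414 and 424 CPM in SF1, against 312 and 303 CPM in WT (fold change on the log2 scale 0.48, SE 0.07, adjusted p = 0.00397; 0.0801 with the GC and length trend removed). Tgfb1 and Il12a held without each library in turn, while Csf1 and Mif, which were also lower (adjusted p = 0.0129 and 0.0254), did not.

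Genes with the most similar profiles over the 5 libraries were ranked by the root mean square difference of centred log2 CPM, among non-members with a mean of at least 5 CPM. For Ccl3 the nearest were Fcgrt, the neonatal Fc receptor (difference 0.191), Wfdc18 (0.199) and Ptpro, a receptor phosphatase (0.214). For Ccl6 they were Lgals3, which encodes galectin-3 (0.224), the Fc receptor gene Fcgr3 (0.236) and Pirb, an inhibitory myeloid receptor gene (0.299), and for Ccl9 Gadd45b, a stress response gene (0.107), the granule protease gene Ctsg (0.163) and Cd68, a lysosomal gene of phagocytes (0.163). Il1b had no close profile among the genes ranked: the nearest, the neutrophil gene Fcnb, differed by 0.788. Il1b itself was below the level of 5 CPM, and genes as low as Il1b, such as Il1rn, were not ranked. For Tnf the nearest were the recombinase gene Rag1 (0.0336), the B-cell receptor gene Cd79a (0.0824) and Lmtk2, a kinase gene (0.118). Rag1 was at 113, 64.5 and 63.9 CPM in SF1, against 182 and 138 CPM in WT. For Osm they were Sdad1, Mrm3 and Lpar5 (0.0473, 0.0545 and 0.0601). With 5 libraries in 2 groups, many genes that differ between the groups have similar profiles.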

How the data were processed

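Raw read counts per gene, not normalized, were deposited by the authors as 1 table. HISAT2 2.2.1, featureCounts 2.0.1, FastQC and the GRCm38 build are named in the submitters' processing notes. No source used here gives the annotation release, the strand setting or the treatment of multiply mapped reads. Per the labels' protocols, SMART-Seq (v2 or v4) and Nextera XT made the libraries, without molecular identifiers or strand marking, so intervals and floors cover counting error only and overlapping or antisense genes share reads. Of 55487 identifiers, 55227 matched GENCODE M21 (GRCm38). For 8 members no 50-mer of the transcripts occurred in another gene, while Ccl9 shared 1.97% and Cxcl2 5.84%.

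Genes were tested with edgeR 4.0.16 (R 4.3.3; TMM, filterByExpr with a minimum count of 10, quasi-likelihood F test, no covariate, Benjamini-Hochberg threshold 0.05) over all 5 libraries. SE is derived from the F statistic. RPKM divides CPM by union exon length. Of 2382 genes called, 977 were higher and 1405 lower with TMM, and 1293 and 1106 with upper-quartile scaling. Every setting was run on simulated counts, with the same spread for all genes and changes planted only in genes above a minimum level. These runs do not bear on the spread of single genes or on low-count members such as Il1b and Ccl5. The alternatives were DESeq2 1.42.0, limma 3.58.1 voom with sample weights, upper-quartile scaling, 2 other filters, thinning, GC and length offsets, a replicate block and leaving out each library. Promoters are from RefSeq (GRCm38.p6), and were aligned with match 2, mismatch -3 and gaps -5 and -2.

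The members, and the 20 other gene lists, were chosen with earlier results of these data known. Besides the members, genes are named as up to 4 of each list with the smallest p, neighbours within 100 kb and the nearest profiles; Ccr1, Il1rap, Nfkbid, Egr1, marker genes at 0, Il1rn, Nfkbia, Tnfaip3, Zfp36, Socs3, Adam17, Nlrp3, Osmr, Cxcl1, Cxcl3, Lta and Ltb were named after their values were seen, as were the AU-rich counts. Some items are not reported here.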

Additional observations from a re-analysis of the deposited data

How the results depend on the processing

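Across the 14 alternatives the called members were between 1 and 5, against 3 as reported. With no filter on low counts 5 members were called, and leaving out 1 library gave between 1 and 5. Ccl3 was called in every alternative. The number of genes called in all was between 986 and 2170 when 1 library was left out, 986 without WT replicate 1. The replicate number as a block (SF1 replicate 3 has no partner) gave 1519 genes and the same number of members, 3. Whether equal replicate numbers pair the samples is not known. Deviations of same-numbered libraries from their group means correlated at 0.0356 and 0.0646. The WT deviations mirror each other about their mean, so these values are not independent and cannot decide the question. Signs turned for Ccl5, Gp9 and Ccl25, which were not called. Ccl5 was at -0.0551 on the log2 scale with the replicate block, -0.23 with the replicate block and the GC and length trend removed, and between -0.0528 and 0.73 when 1 library was left out. When 1 library was left out, the megakaryocyte marker Gp9 was between -0.31 and 0.0054 and the chemokine gene Ccl25 between -0.41 and 0.83. The cause was not tested. Depth limits Cxcl2, Cxcl10 and Ccl5, which rest on at most 21 counts in a library.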
